A study of Homo sapiens and Mus musculus with 10 samples.

Results

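Peaks of accessible chromatin whose summit fell inside protein-coding sequence away from start sites made up 5363 of the 707539 peaks, or 0.758%, in the 8 human lists of a bulk ATAC-seq series. A peak was counted when the summit base lay in a coding interval (CDS) of a GENCODE release 44 protein-coding transcript and more than 2 kb from every annotated start site of any gene. The rule used annotation and position, and no measured height. Coding sequence this far from a start is called internal here, and it includes parts of first, last and single coding exons. In ATAC-seq the Tn5 transposase cuts into open chromatin and leaves sequencing adapters there, so a pile of fragment ends marks an accessible site. The human libraries came from 4 untreated cell lines with 2 replicates each, and the 2 mouse libraries of the series were not used here. The lines were the lymphoblastoid B-cell line GM12878, the fibroblast line HFF1 from foreskin, the erythroleukaemia line K562, and HEK293T, embryonic kidney cells with the large T antigen of SV40. The labels name no treatment, and they do not say whether the replicates came from separate cultures, so p-values measure only the spread between these libraries.

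Most distal regulatory elements lie in introns or between genes. A coding exon can also carry one, in which case the same bases encode amino acids and hold binding sites for transcription factors, and such exons are known as exonic enhancers when they act on a promoter. CTCF is a zinc finger protein that organises chromatin loops and occupies many of its sites in most cell types. AP-1 is a dimer of Fos and Jun proteins with many sites at fibroblast enhancers, while GATA1 in erythroid cells and PU.1 and RUNX proteins in blood cells open sites particular to those lineages. In nuclei pooled from many cells, a site open in fewer cells and a site less open in each cell cannot be told apart.

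The sequences below show what the coding-exon sites look like. Each is the summit base with 50 bases on either side, read 5′ to 3′ on the plus strand of GRCh38, and capitals mark a match to one of 10 fixed consensus sequences. The first set holds exons that were accessible in all 4 lines, in C17orf50 (chr17:35764271-35764371), MAMSTR (chr19:48714325-48714425), CAMK2D (chr4:113547594-113547694) and AHSG (chr3:186617146-186617246). AHSG is the highest-ranked of these shared exons to hold the CTCF consensus, whose match lies on the minus strand. Of the 101 bases in each window, 55 are coding in C17orf50, 60 in MAMSTR, 51 in CAMK2D and 63 in AHSG.
C17orf50: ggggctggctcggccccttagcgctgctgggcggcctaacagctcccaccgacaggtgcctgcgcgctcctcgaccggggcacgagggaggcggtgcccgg
MAMSTR: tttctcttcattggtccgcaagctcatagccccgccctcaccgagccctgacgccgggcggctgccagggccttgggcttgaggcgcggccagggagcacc
CAMK2D: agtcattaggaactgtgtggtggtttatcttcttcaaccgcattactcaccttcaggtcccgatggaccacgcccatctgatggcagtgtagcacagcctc
AHSG: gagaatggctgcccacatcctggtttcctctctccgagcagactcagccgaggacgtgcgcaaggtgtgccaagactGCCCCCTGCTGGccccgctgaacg

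The second set holds a high-ranked exon specific to each line, in TOPBP1 for GM12878 (chr3:133620227-133620327), GALNTL6 for HEK293T (chr4:172809481-172809581), B3GALT5 for HFF1 (chr21:39660704-39660804) and HMGXB3 for K562 (chr5:150050383-150050483). All 101 bases are coding in TOPBP1 and B3GALT5, against 66 in GALNTL6 and 79 in HMGXB3, where the window runs into an intron. The AP-1 consensus TGANTCA is capitalised in HMGXB3, where the match has 0 coding bases and so lies beside the coding part.
TOPBP1: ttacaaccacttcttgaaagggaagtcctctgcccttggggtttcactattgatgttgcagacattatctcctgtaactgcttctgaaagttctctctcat
GALNTL6: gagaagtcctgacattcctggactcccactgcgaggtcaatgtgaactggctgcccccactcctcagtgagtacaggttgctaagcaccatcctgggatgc
B3GALT5: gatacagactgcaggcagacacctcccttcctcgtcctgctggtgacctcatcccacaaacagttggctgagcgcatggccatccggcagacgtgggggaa
HMGXB3: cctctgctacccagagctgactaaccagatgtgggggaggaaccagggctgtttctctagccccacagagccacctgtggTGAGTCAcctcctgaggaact

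The third set was chosen after the values were seen, to show 2 genes known for exonic enhancers and examples of lineage consensus matches. DYNC1I1 (chr7:96076012-96076112) and HDAC9 (chr7:18666248-18666348) are genes in which coding exons have been described as enhancers, and whether the exons shown here are the described ones was not tested. PTPRO (chr12:15526165-15526265) holds the PU.1 consensus GAGGAAGT in a GM12878-specific region, and ZBTB21 (chr21:41993833-41993933) the AP-1 consensus in an HFF1-specific region, and both matches lie wholly in coding bases. PRPF19 (chr11:60891195-60891295) has a K562-specific region with the GATA consensus AGATAAG, a match with 0 coding bases in a window of which 69 bases are coding.
DYNC1I1: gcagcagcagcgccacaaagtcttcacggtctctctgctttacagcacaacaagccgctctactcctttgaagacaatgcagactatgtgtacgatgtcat
HDAC9: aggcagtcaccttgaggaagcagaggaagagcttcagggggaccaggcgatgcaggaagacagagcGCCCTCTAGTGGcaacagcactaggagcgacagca
PTPRO: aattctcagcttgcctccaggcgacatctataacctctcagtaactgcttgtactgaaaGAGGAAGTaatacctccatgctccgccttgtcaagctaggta
PRPF19: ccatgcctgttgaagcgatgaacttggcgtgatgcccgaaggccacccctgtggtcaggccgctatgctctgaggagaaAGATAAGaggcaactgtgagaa
ZBTB21: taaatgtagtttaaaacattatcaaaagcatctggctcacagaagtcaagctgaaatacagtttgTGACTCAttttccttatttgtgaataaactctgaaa

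The libraries differed in depth. The background level, a reads-per-window value recovered from the deposited fold and p-value of each peak, was 0.465 and 0.466 in the HEK293T libraries and between 1.71 and 2.43 in the other 6. The labelled cell types were checked by promoter peaks at 5 marker genes each. GM12878 had all 5 B-cell markers, HFF1 all 5 fibroblast markers, K562 4 of 5 erythroid markers with KLF1 absent, and HEK293T 4 of 5 kidney markers with PAX8 absent. Markers of other types also had promoter peaks, such as PAX5 and EPOR in all 8 libraries, so the check rests on genes like CD79A, MS4A1, GATA1, TAL1, COL3A1 and PAX2, each with peaks in only 1 line.

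The first comparison asked how often coding exons were accessible in each line. The GM12878 libraries held 751 and 762 coding-exon peaks, the HEK293T libraries 407 and 380, the HFF1 libraries 832 and 762, and the K562 libraries 786 and 683. HEK293T lay below the other 3 lines, whose libraries overlapped, and number did not pass the test between lines (eta squared 0.976, adjusted p = 0.122, exact one-sided permutation test over 105 pairings of the 8 libraries, Benjamini-Hochberg over 14 tests). When pileups were scaled to the lowest background level, the mean numbers became 570 in GM12878, 394 in HEK293T, 465 in HFF1 and 395 in K562, and the difference passed (eta squared 0.987, adjusted p = 0.0333, exact permutation test). It also passed without K562 replicate 1 (eta squared 0.99, adjusted p = 0.0267, exact permutation test). The number of coding exons called therefore moved with the scaling, and K562 then lay beside HEK293T.

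As a share of the list, coding-exon peaks were 0.738% and 0.735% in GM12878, 0.776% and 0.729% in HEK293T, 0.653% and 0.633% in HFF1 and 1.00% and 0.959% in K562. K562 was highest and HFF1 lowest, while the GM12878 values fell between the HEK293T replicates. The share differed between lines by more than the replicate spread (eta squared 0.983, adjusted p = 0.0438, exact permutation test). Among peaks more than 2 kb from a start site, K562 had a coding-exon share of 1.59% ± 0.0145 (SD, n = 2), HEK293T 1.35% ± 0.0434, GM12878 1.09% ± 0.00579 and HFF1 0.93% ± 0.0135. No replicates of different lines overlapped on this measure (eta squared 0.996, adjusted p = 0.019, exact permutation test), and the unadjusted p of 0.00952 is the smallest the test can give.

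**Figure D1:**
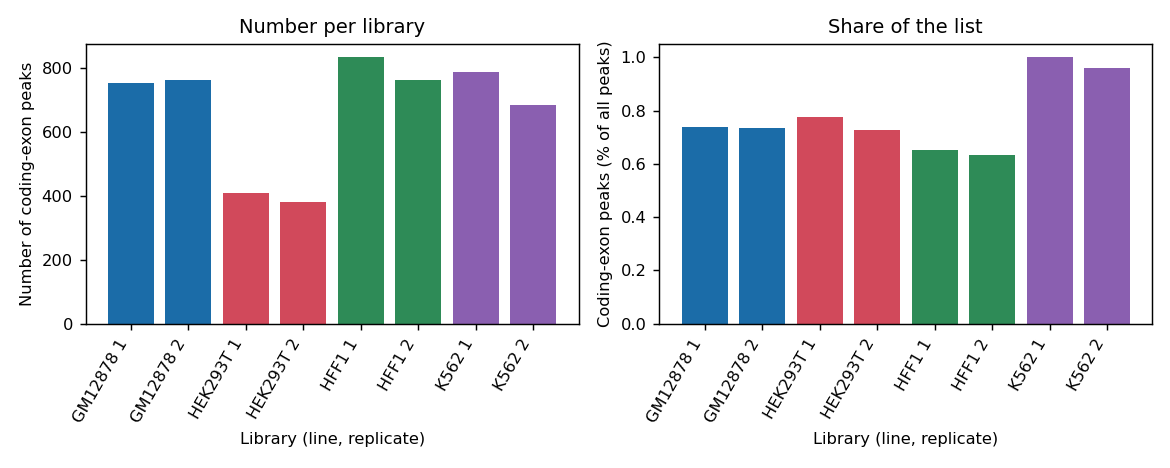
Number of coding-exon peaks (left) and their share of all peaks in percent (right) in each of the 8 human libraries, with 1 bar per library coloured by line. The HEK293T bars are lowest in number (407 and 380), whereas the K562 bars are highest in share (1.00% and 0.959%).

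Internal coding sequence more than 2 kb from any start covers 18.3 Mb, or 0.628% of the autosomes and X. Coding exons held 41.1 and 41.7 summits per Mb in GM12878, 22.3 and 20.8 in HEK293T, 45.5 and 41.7 in HFF1, and 43.0 and 37.4 in K562. Introns of protein-coding genes held 32.9 and 33.5 summits per Mb in GM12878, 11.8 and 11.4 in HEK293T, 41.3 and 38.6 in HFF1, and 21.7 and 19.0 in K562. Coding exons were therefore denser in summits than introns in all 8 libraries, and the ratio of the densities was 1.09 ± 0.0154 in HFF1 (SD, n = 2), 1.25 ± 0.00493 in GM12878, 1.86 ± 0.0481 in HEK293T and 1.97 ± 0.0142 in K562. The ratio differed between lines with no overlap of replicates (eta squared of its log2 value 0.998, adjusted p = 0.019, exact permutation test). The order of the 4 lines on this ratio held in every setting tried, the scaled lists included. Other exonic sequence of coding genes, such as untranslated parts, reached 51.2 and 47.8 summits per Mb in HFF1 and exceeded coding sequence there, whereas in K562 it held 31.2 and 28.3.

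**Figure D2:**
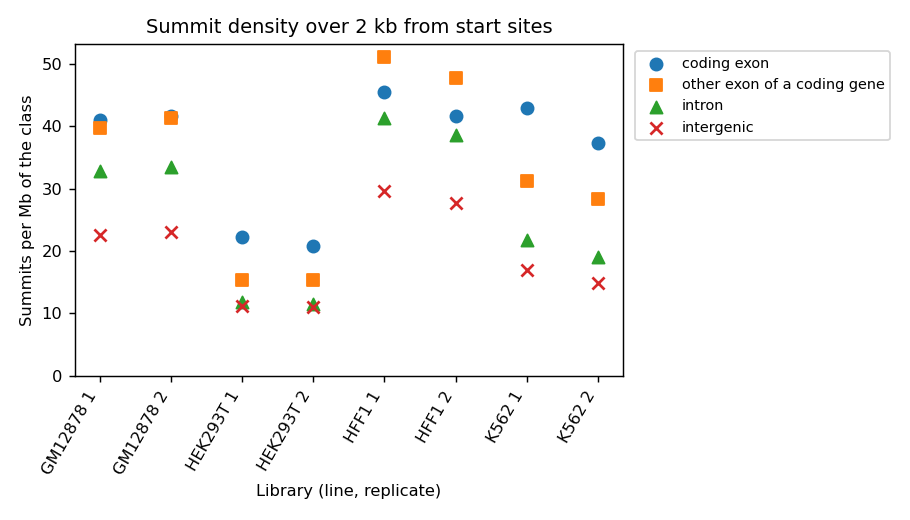
Summits per Mb of sequence in 4 annotation classes, all more than 2 kb from any start site, in each human library. The coding-exon circles lie well above the intron triangles in HEK293T and K562 and only a little above them in HFF1, where the 2 classes held 45.5 and 41.3 summits per Mb in replicate 1.

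Coding-exon peaks were small features, and most reached beyond the coding sequence. Their median width lay between 224 and 278 bp across libraries, and the difference from intronic peaks in median width did not pass (mean -3.38 bp, adjusted p = 0.353, exact two-sided sign-flip permutation test, n = 8 libraries). Between 18.4% and 23.5% of them lay wholly within coding sequence, and the median peak had 58.2% to 70.0% of its bases in CDS. The median deposited fold, which sets the summit against nearby background within its library, was 6.97 on average in coding exons and 6.84 in introns. That difference of 0.129 passed (adjusted p = 0.0438, exact sign-flip permutation test, higher in 6 of 8 libraries and tied in the rest), but its mean turned to -0.071 with a 1 kb distance from starts and to -0.132 with 1 start site per gene, and it was 0.466 with a 5 kb distance (adjusted p = 0.0121). The call was also lost without either GM12878 library, either HEK293T library, HFF1 replicate 2 or K562 replicate 2, where the difference was 0.0973 to 0.143. Between 72.9% and 88.6% of coding-exon peaks overlapped a peak of the other replicate, and this share did not differ detectably from that of introns (82.6% against 81.7% on average, adjusted p = 0.367, exact sign-flip permutation test).

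Near the 2 kb threshold, the libraries had 21 to 67 coding summits between 2001 and 2500 bp from a start, with median folds of 5.22 to 8.06. On the near side, between 1501 and 2000 bp, they had 33 to 102 coding summits, with median folds of 5.24 to 8.67, and the rule left these out.

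Accessible coding exons were rich in G and C. Mean GC content over the summit and 100 bases on either side was 54.4% and 54.6% in GM12878, 57.5% and 57.4% in HEK293T, 53.2% and 53.6% in HFF1, and 57.9% and 58.0% in K562. Windows of the same size tiled over all internal coding sequence averaged 48.2%, so every library lay above the sequence it was drawn from. Intronic peaks were lower in all 8 libraries, by 7.23 percentage points on average (SD 0.777, adjusted p = 0.019, exact sign-flip permutation test). Exons are richer in GC than introns by sequence, which the rule selects, so the intronic contrast describes the classes. Observed over expected CpG was 0.416 to 0.464 in coding-exon peaks, against 0.330 over all internal coding sequence and 0.211 to 0.262 in intronic peaks.

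The CTCF consensus, of 12 bases and searched on both strands in the 101 bases around each summit, was found in 12.0% and 12.1% of coding-exon peaks in GM12878, 16.5% and 17.4% in HEK293T, 7.57% and 8.79% in HFF1, and 12.0% and 12.2% in K562. Only 0.593% of same-length windows over internal coding sequence held it, and its letters read backwards were in 0.131% to 0.293% of the peaks. Intronic peaks held it in 8.07%, 7.92%, 15.0%, 15.2%, 5.19%, 5.27%, 10.3% and 10.7% of the same libraries, in the same order. The coding-exon share was higher in 8 of 8 libraries, by 2.60 percentage points on average (SD 1.10, adjusted p = 0.019, exact sign-flip permutation test). The CTCF letters read backwards were in 0.029% to 0.0763% of intronic peaks, below their range in coding-exon peaks, a difference in the same direction.

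The AP-1 consensus TGANTCA went the other way. It was found in 4.93% and 4.99% of coding-exon peaks in GM12878, 2.21% and 2.11% in HEK293T, 14.5% and 15.5% in HFF1, and 5.85% and 6.73% in K562. HFF1 stood above the other lines, and the HEK293T values lay below the 2.55% of all internal coding windows. Intronic peaks held it in 5.14% to 21.4%, more than coding-exon peaks in 8 of 8 libraries, and the mean difference of coding exon minus intron was -5.27 percentage points (SD 1.43, adjusted p = 0.019, exact sign-flip permutation test). Among the 20000 strongest peaks of each library it was -8.56 points. The AP-1 letters read backwards were in 0.246% to 1.92% of coding-exon peaks and 2.02% to 3.53% of intronic peaks, a difference in the same direction. The GATA consensus AGATAAG was in 3.69% and 2.78% of coding-exon peaks in K562 and in 0% to 0.799% elsewhere, against 0.925% of internal coding windows. The PU.1 consensus GAGGAAGT was in 3.46% and 4.20% in GM12878 and in 0.721% to 1.27% in the other lines, against 0.724% of internal coding windows. A match describes these letters and does not show that a factor was bound.

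**Figure D3:**
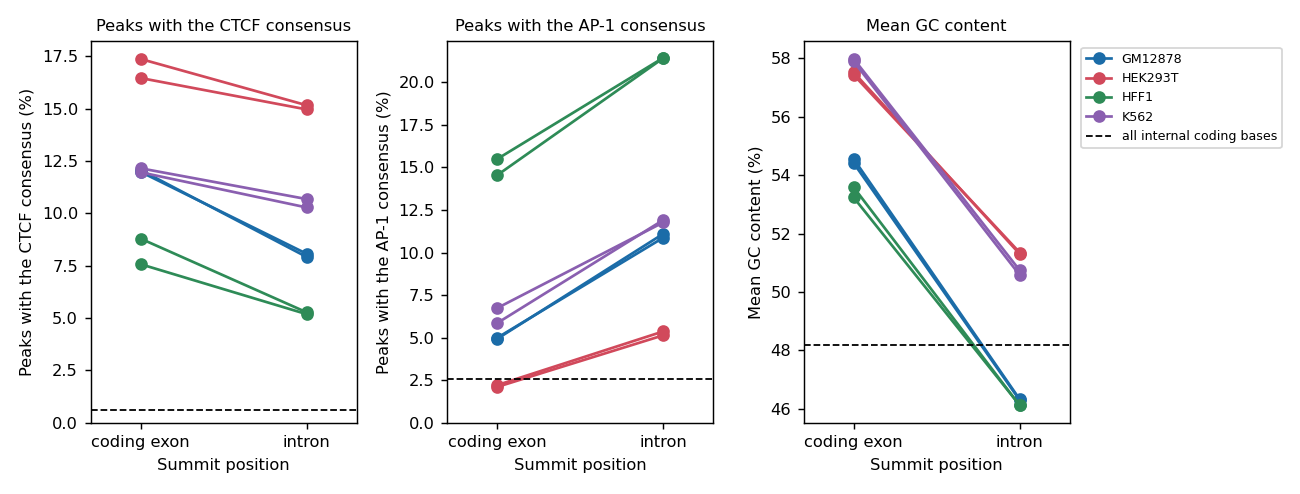
Percent of peaks with the CTCF consensus (left) or the AP-1 consensus (middle) near the summit, and mean GC content in percent (right), for coding-exon and intronic peaks, with 1 line per human library and a dashed line for all internal coding sequence. The CTCF and GC lines fall from coding exon to intron in every library, and the AP-1 lines rise, with HFF1 highest at 14.5% and 15.5% in coding exons.

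Counted per peak, coding-exon peaks lay in a host gene with an accessible promoter less often than intronic peaks did. A gene with several peaks counted once for each of them. A peak within 1 kb of one of the host gene's own starts was present in the same library for 80.6% and 81.4% of coding-exon peaks in GM12878, 74.7% and 71.8% in HEK293T, 85.7% and 85.3% in HFF1, and 77.0% and 73.1% in K562. Intronic peaks had 84.8% to 94.1%, higher in 8 of 8 libraries, and the mean difference of coding exon minus intron was -9.65 percentage points (SD 2.35, adjusted p = 0.019, exact sign-flip permutation test). The difference was -3.13 points with 1 start site per gene and -15.1 points among the 20000 strongest peaks of each library, and it passed in both. The setting with 1 start site changed only which summits were counted, and promoter peaks were still sought at every start of the host gene. A summit near another start of its gene could then be its own promoter peak, so the -3.13 points are not directly comparable. Whether the size of the host genes moved with the promoter difference was not tested.

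Overlapping coding-exon peaks of the 8 libraries merged into 2329 regions in 2022 genes. These genes were 13.2% of the 15369 protein-coding genes that have coding sequence beyond 2 kb of a start. Single regions were the rule, with 1772 genes holding 1 region, 208 holding 2 and 42 holding 3 or more. Within the canonical transcripts, 72.5% of regions lay in a middle coding exon and 21.7% in the last, close to the 72.3% and 20.2% of internal coding bases in those positions. A further 3.08% lay in the first coding exon and 2.72% in coding sequence of a single exon. Their exons had a median length of 181 bp, and 11.3% of regions lay in exons of 1 kb or longer, against 18.5% of internal coding bases. The X chromosome held 2.23% of regions and 4.15% of internal coding sequence.

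By library, coding-exon peaks reached 708 and 718 genes in GM12878, 385 and 364 in HEK293T, 777 and 715 in HFF1, and 732 and 641 in K562. Number of genes followed number of peaks and did not pass the test between lines (eta squared 0.966, adjusted p = 0.122, exact permutation test), although it did with scaled lists (0.994, adjusted p = 0.0333, exact permutation test) and without K562 replicate 1 (0.987, adjusted p = 0.0267). Both replicates reached 550 genes in GM12878, 260 in HEK293T, 575 in HFF1 and 495 in K562. The 76 genes reached by both replicates of all 4 lines were 13.8%, 29.2%, 13.2% and 15.4% of those sets.

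The second comparison asked how the coding-exon sites were shared between lines. In base pairs, the coding-exon peaks of the 2 replicates of a line overlapped with a Jaccard index of 0.562 in GM12878, 0.460 in HEK293T, 0.509 in HFF1 and 0.481 in K562. Libraries of different lines had indices of 0.109 to 0.191 over 24 pairs. The mean difference of 0.358 passed (adjusted p = 0.019, exact permutation test). Among lines, HEK293T and K562 were closest at 0.187 and HEK293T and HFF1 farthest at 0.113.

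A region was called open in a line when both replicates had any peak over it. By this call, 1152 of the 2329 coding-exon regions (49.5%) were open in 1 line, against 53.4% of all regions beyond 2 kb of a start, and 605 were open in none because their peaks came from single replicates. A further 250 were open in 2 lines and 172 in 3. The 150 regions open in all 4 lines were 6.44% of coding-exon regions, against 4.18% of all regions beyond 2 kb and 3.49% of intronic ones. Within libraries, 15.0% and 15.1% of coding-exon peaks in GM12878, 30.5% and 33.2% in HEK293T, 13.5% and 14.2% in HFF1, and 13.9% and 16.4% in K562 overlapped peaks of both replicates of the other 3 lines. That share exceeded the intronic one in 7 of 8 libraries, by 3.96 percentage points on average (SD 2.72, adjusted p = 0.0273, exact sign-flip permutation test). With a 5 kb distance from starts the difference was 6.06 points. It reversed among the 20000 strongest peaks of each library, where coding-exon peaks were shared less often than intronic peaks (difference -2.60 points, adjusted p = 0.019, exact sign-flip permutation test). Without HEK293T replicate 1 or HFF1 replicate 2 the difference was 4.09 or 3.66 points and no longer passed (adjusted p = 0.0729 each, exact sign-flip permutation test).

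A region was called specific to a line when it was open there and no library of another line had a peak over it. HFF1 had 403 specific coding-exon regions, 17.3% of all, where 23.2% of all regions beyond 2 kb were specific to it. GM12878 had 297, or 12.8% against 15.9%. K562 had 234, or 10.0% against 6.48%, so in the deposited lists its share lay above the background where those of the other lines lay below. HEK293T had 40, or 1.72% against 1.99%. With lists scaled to the lowest background the counts were 222 for HFF1, 111 for K562 and 67 for HEK293T, and without HEK293T replicate 2 that line had 73. Scaling also lowered the total number of coding-exon regions. The share of all regions beyond 2 kb was not computed for scaled lists, so whether K562 stayed above it was not tested. Of the coding-exon regions open in a line, 47.7% were specific in HFF1, 36.4% in GM12878, 32.4% in K562 and 10.4% in HEK293T. The same shares of intronic regions were 61.6%, 52.5%, 33.9% and 15.2%.

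**Figure D4:**
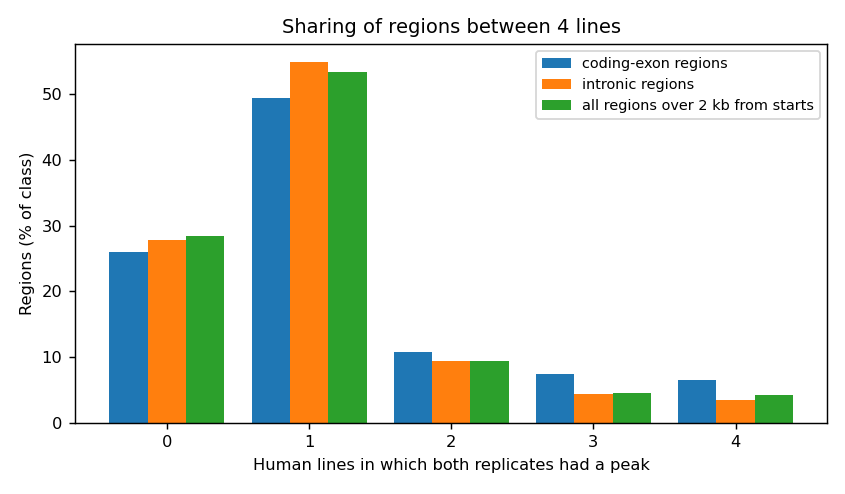
Percent of merged regions by the number of lines in which both replicates had a peak, for coding-exon regions, intronic regions and all regions more than 2 kb from a start. Coding-exon regions are fewer at 1 line (49.5% against 53.4% of all) and more at 4 lines (6.44% against 4.18%).

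Sequence content was also compared between the sharing classes, as a description. The CTCF consensus was in 36 of the 150 regions open in all 4 lines, or 24.0%, and in 8 of 297 regions specific to GM12878, 3 of 40 specific to HEK293T, 5 of 403 specific to HFF1 and 8 of 234 specific to K562. Intronic regions open in all 4 lines held it in 30.0%, so at this level the exon was not the richer class. Of the 36 matches in shared coding-exon regions, 28 lay wholly in coding bases, and over all regions 127 of 152 matches did. The 152 matches were split evenly between the strand of the host gene and the opposite strand, at 76 each. The AP-1 consensus was in 89 of 403 HFF1-specific regions, or 22.1%, and in 4 of 150 shared ones. It was in 9.66% of all coding-exon regions and in 25.1% of HFF1-specific intronic regions. The GATA consensus was in 13 of 234 K562-specific regions, or 5.56%, against 1.59% of all coding-exon regions, where K562-specific intronic regions held it in 13.2%. In GM12878-specific regions, the PU.1 consensus was in 18 of 297, or 6.06%, against 1.93% of all coding-exon regions and 4.51% of GM12878-specific intronic ones. The RUNX consensus TGTGGTT was in 15 of 297, or 5.05%, against 2.45% and 8.34%. HFF1-specific regions also lay above the 2.45%, at 16 of 403, or 3.97%. Of the K562-specific regions 1 of 234 held it, and of the HEK293T-specific ones 0 of 40. Mean RUNX shares of coding-exon peaks were 3.17% in GM12878, 3.44% in HFF1, 1.21% in K562 and 0.263% in HEK293T. The RUNX consensus was therefore not particular to GM12878. Mean GC content was 58.8% in regions open in all 4 lines and 57.8% in K562-specific ones, so these classes lay close together, while it was 52.3% in HEK293T-specific, 50.0% in GM12878-specific and 48.7% in HFF1-specific regions.

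Among the shared exons, the 8 highest-ranked by p-value within each list were in C17orf50, FAAP20, MAMSTR, CAMK2D, ARHGEF26, ZNF704, AHSG and MGARP. CAMK2D encodes a calcium- and calmodulin-dependent kinase, and its coding exon 6 of 20, only 73 bp long, had deposited folds of 19.3 and 18.6 in GM12878, 19.5 and 18.5 in HEK293T, 14.5 and 11.7 in HFF1, and 15.0 and 15.6 in K562. AHSG encodes fetuin-A, a plasma glycoprotein made by the liver, and its exon 4 of 7 had folds of 13.0 and 13.4 in GM12878, 17.2 and 14.5 in HEK293T, 11.5 and 11.3 in HFF1, and 8.13 and 9.46 in K562. ARHGEF26, a guanine nucleotide exchange factor, had 14.1 to 20.8 over a 68 bp exon. FAAP20, part of the Fanconi anaemia core complex, had 9.27 to 13.7 in its last coding exon. MAMSTR, a coactivator of the muscle factor MEF2, had 8.16 to 13.4. Each of these exons had a peak in every library, which the choice of these regions fixed.

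The 2 genes known for exonic enhancers each held 1 coding-exon region, and both regions were open in all 4 lines. Over all genes with internal coding sequence 13.2% held a region, and 6.44% of all regions were open in all 4 lines. Whether these 2 exons are the described enhancers was not tested. DYNC1I1 encodes an intermediate chain of cytoplasmic dynein, and its exon 14 of 16 coding exons had folds of 18.8 and 19.3 in GM12878, 9.30 and 13.4 in HEK293T, 13.2 and 14.3 in HFF1, and 13.3 and 10.9 in K562. HDAC9 encodes a class II histone deacetylase, and its exon 11 of 25 had 20.7 and 21.9 in GM12878, 16.0 and 16.1 in HEK293T, 10.2 and 9.80 in HFF1, and 5.61 and 5.39 in K562. Both exons had a peak in every library. Folds are relative to the background of their own library and are not normalised between lists, so they are set side by side here without a test. The HDAC9 window printed above holds a CTCF consensus in fully coding sequence, and the DYNC1I1 window, 56 of whose bases are coding, holds none of the 10 consensus sequences.

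Line-specific exons had peaks in both replicates of 1 line and in no library of another. In GM12878, TOPBP1, a DNA damage checkpoint scaffold, had folds of 20.3 and 20.0 at coding exon 19 of 27. PTPRO, a receptor tyrosine phosphatase, had 17.0 and 16.1, SERPINB9, an inhibitor of granzyme B, 15.3 and 15.9, MARCHF11, a ubiquitin ligase, 14.8 and 16.3, and F2R, the thrombin receptor, 10.2 and 10.2. In HFF1, PTPDC1, a phosphatase gene, had 18.5 and 17.0, and CLCN1, a chloride channel of skeletal muscle, 17.2 and 16.9. CRYBG3 had 15.2 and 14.9 in an exon of 6196 bp, B3GALT5, a galactosyltransferase, 14.8 and 14.0, and GSR, glutathione reductase, 13.9 and 15.8.

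In K562, the transcription factor genes HEY2, a Notch target, and LHX9, of the LIM homeobox family, had folds of 13.5 and 11.6 and of 12.1 and 12.8 in their last coding exons. MAP3K13, a kinase, had 11.6 and 10.4, HMGXB3 11.0 and 10.8, and IQSEC2, an exchange factor for ARF proteins on the X chromosome, 10.4 and 8.75. In HEK293T, the shallowest line, UNC5D, a netrin receptor, had 14.0 and 11.3, GALNTL6, of the GalNAc transferase family, 9.80 and 12.9, and KLHL14 9.09 and 11.7. AGBL1 had 8.31 and 8.42. Replicates of a line differed little beside the absence of a peak elsewhere, which the choice of these regions fixed.

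**Figure D5:**
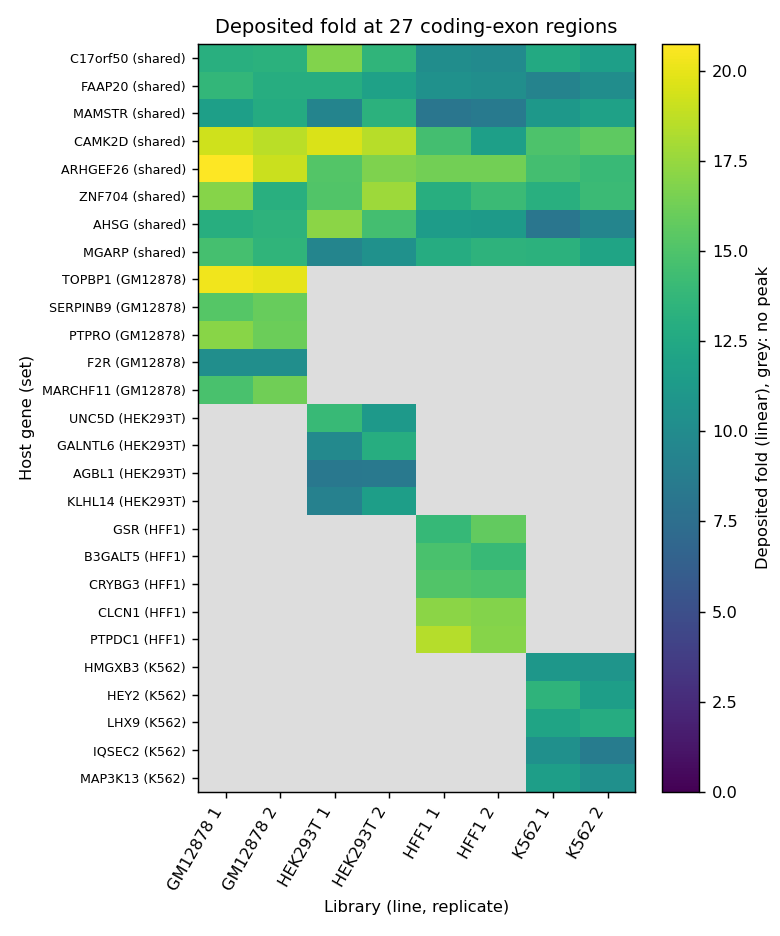
Deposited fold (colour, linear scale) at 27 high-ranked regions by host gene (vertical axis) and library (horizontal axis), with grey where a library had no peak. The 8 shared exons are coloured in all 8 libraries, and the line-specific blocks are coloured in 1 line each, as their selection requires.

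Few genes held several regions. DST, a giant cytoskeletal linker, SPTBN4, a beta-spectrin, and ENSG00000188897, which the annotation names only by its identifier, held 5 each, and C2orf16, COL12A1 and FNIP1 held 4 each. In SPTBN4, exons 16 and 20 of 35 were open in all 4 lines, with folds of 6.61 to 8.66 and of 7.98 to 16.3. In FNIP1, which encodes a folliculin partner, exon 14 of 18 (1420 bp) held a region specific to GM12878 with folds of 7.57 and 6.71 and, further along the same exon, a region specific to HFF1 with 10.5 and 9.62. In DST, the highest folds were 10.9 and 11.2 in GM12878 at exon 48 of 104, where HFF1 replicate 2 also had a peak at 4.27. An HFF1-specific DST region at exon 70 had 8.81 and 7.90. In C2orf16, a single exon of 15790 bp held all 4 regions, with peaks in HFF1 alone. COL12A1, a collagen of fibroblast matrix, had 3 HFF1-specific regions, at exons 9, 25 and 59 of 65, with folds of 12.8 and 12.5, 11.7 and 13.1, and 4.85 and 4.20.

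Lineage genes are given beside the 13.2% of all genes with internal coding sequence that held a region. Of 14 B-cell genes, 1 (7.14%) did, BCL6, a germinal centre repressor, with a peak in K562 replicate 1 alone (fold 4.91). Of 19 erythroid genes, 3 (15.8%) did. EPB41, the red cell membrane protein 4.1, had a K562-specific region with folds of 6.58 and 6.14. RHAG, the Rh-associated glycoprotein, had a region open in all 4 lines, with 13.6 and 12.4 in GM12878, 9.90 and 13.1 in HFF1, 8.87 and 8.92 in HEK293T, and 8.31 and 6.68 in K562. ZFPM1, the GATA cofactor FOG1, held 3 regions in its 1829 bp last exon, open in GM12878 or HFF1 and in neither K562 library.

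Of 14 fibroblast genes, 4 (28.6%) held a region, and of 8 kidney genes, 2 (25%), both on short lists and above the 13.2% of all genes. COL3A1, the fibrillar collagen III, had an HFF1-specific region with folds of 5.92 and 5.35, and FBN2, a fibrillin, one with 5.53 and 5.23. The main FBN1 region was instead open in K562, with 8.66 and 5.73, and had a peak of 5.46 in HEK293T replicate 1. COL1A2 had a peak in 1 library. None of the kidney gene regions was open in HEK293T. PAX2, a transcription factor of kidney development, had 4.26 and 4.32 at an HFF1-specific exon and 4.14 and 3.47 at a GM12878-specific one. Of 43 collagen genes, 12 (27.9%) held a region, and their 16 regions amounted to 124 per Mb of internal coding sequence, near the 127 per Mb of all genes. Of the 16, 5 were specific to HFF1 and 1 to K562, where 17.3% and 10.0% of all coding-exon regions were. The highest-ranked collagen region, in COL5A2, was open in GM12878 with folds of 12.7 and 13.9. It also had a peak of 6.83 in HEK293T replicate 1 and none in HFF1. COL26A1 had one of the HFF1-specific regions, with 4.39 and 6.38.

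Families with long or repeated coding exons were reached less densely. Genes named ZNF, ZSCAN, ZKSCAN or ZFP encode zinc finger proteins, and 28 of 513 (5.46%) held a region, or 40.8 regions per Mb of their internal coding sequence, against 127 per Mb over all genes. Among them ZNF609 had folds of 13.2 and 11.7 in GM12878 alone, ZNF169 had 8.55 and 9.64 in K562 alone, and ZNF142 had 6.43 to 15.7 in all 8 libraries. None of the 37 clustered protocadherin genes, which encode neuronal adhesion proteins, held a region. Together they have only 19.6 kb of internal coding sequence, so few regions could be found there. The 27 giant or large-exon genes, such as TTN and MACF1, had 27 regions in 12 genes, or 65.5 per Mb. AHNAK2 had a HEK293T-specific region with 6.14 and 8.11 in an exon of 16734 bp. Zinc finger and protocadherin exons have close relatives elsewhere in the genome, and how the authors treated reads that map to several places is not given in the sources used here, so low counts in these families are uncertain.

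Of the developmental families, 2 of 7 HOX genes, 3 of 9 SOX genes and 4 of 27 FOX genes with internal coding sequence held a region, or 28.6%, 33.3% and 14.8% against 13.2% of all genes. HOXD10 had folds of 7.37 and 8.88 in GM12878 and 5.15 in K562 replicate 1, and HOXD3 3.41 and 4.29 in HFF1. SOX5 had 10.7 and 11.7 in GM12878 alone, and SOX6 had 8.85 and 8.42 there with single-replicate peaks of 6.83 in HEK293T and 6.24 in K562. FOXN2 had 7.44 and 8.15 in HFF1 alone.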

How the data were processed

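The authors deposited 1 peak list per library, and the submitters' processing notes name cutadapt 3.2, Bowtie2 2.4.2, Picard and MACS2 2.2.7.1 with the build hg38. Their settings are not given in the sources used here. Each deposited peak carries a score, a fold (a linear ratio of summit over local background), a −log10 p and a −log10 q, whose lowest value was 2.00 to 2.05 across the human lists. These values are the authors' and describe or rank peaks within a list.

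Summits on the autosomes and X were compared with GENCODE release 44, on GRCh38, in the order start-site window (2 kb), coding exon, other exon, intron. A whole-number pileup and a background were solved from fold and p for 100% of peaks, and the lowest common background stands for depth. Since PCR duplicates carry no molecular identifier, reads may repeat a molecule, and no counting interval was computed. Replicates followed the labels. Between-line differences used eta squared over 105 pairings (smallest p 0.00952), and coding-exon against intronic differences used 256 sign flips (smallest p 0.00781). The 2 libraries of a line are not independent in the sign flips. A test of 2 libraries against 2 cannot go below 0.333 two-sided, so single lines were not tested against each other. All 14 p-values were adjusted together, at a threshold of 0.05.

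Regions were named by rule: the 8 highest-ranked open in all 4 lines, the 5 highest-ranked specific to each line, the 6 genes with most regions, and members of fixed gene lists, with long lists given by examples. Some named items are not reported here. The members, lists and tests were chosen with earlier results of these data known. GC content and 10 consensus sequences were read from the hg38 genome around each summit, and the windows over internal coding sequence were placed every 20 bp. The reversed SP/KLF consensus equals itself and gives no background. Alternatives changed the summit, start distance, start sites, coding annotation, q threshold, list length, scaling, overlap and libraries. Scripts were tested on simulated data. Python 3.11.15, numpy 2.4.6, pandas 2.3.3 and scipy 1.17.1 were used. The mouse lists were not analysed here.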

Additional observations from a re-analysis of the deposited data

Results flagged for a closer look

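The width of coding-exon peaks relative to intronic peaks took opposite signs in different lines. Coding-exon peaks were wider at the median by 6.25 bp in HEK293T (5.50 and 7.00 bp in the replicates) and narrower in GM12878 (-3.75 bp, with -7.00 and -0.500) and in HFF1 (-14.0 bp, with -17.0 and -11.0). The share of peaks found in the other replicate behaved likewise. It was higher in coding exons than in introns by 4.29 percentage points in HEK293T (2.52 and 6.07) and by 0.905 in HFF1 (0.496 and 1.31), and lower in GM12878 (-0.493, with -0.917 and -0.0691). Both replicates of each of these lines had the same sign. The differences between lines were not tested.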

How the results depend on the processing

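Apart from the replicate block and line means, the calls, though not always the sizes, held in all settings tried for the share of peaks, the share of distal peaks, the exon to intron density ratio, the Jaccard difference, GC content, CTCF, AP-1 and host promoters. Deviations of same-numbered libraries correlated at -0.126 to 0.13 over 150 shared regions, which cannot show whether the replicate numbers pair the libraries. Replicate 1 had the higher share of peaks, share of distal peaks and density ratio in each line. Its share of peaks was 0.738% against 0.735% in GM12878, 0.776% against 0.729% in HEK293T, 0.653% against 0.633% in HFF1 and 1.00% against 0.959% in K562. Number of peaks was higher in replicate 2 only in GM12878 (762 against 751). With the replicate block only 24 pairings remain, and the adjusted p was 0.175 for each of 4 calls lost: eta squared was 0.995 for share of peaks, 0.998 for share of distal peaks and 0.999 for the density ratio, and the Jaccard difference 0.358. Line means with the replicate block leave 16 sign flips and a smallest p of 0.125, so 0.129 for fold, 3.96 for sharing, 7.23 for GC, 2.60 for CTCF, -5.27 for AP-1 and -9.65 for promoters did not pass. The fold difference was -0.0706 at 1 kb from starts, -0.132 with 1 start per gene, 0.141 at peak midpoints, 0.0904 with canonical intervals, 0.0468 at −log10 q of 5 and 0.0489 among the 20000 highest peaks, and it passed at 0.466 (5 kb) and 0.166 (scaling). Sharing was -2.60 among the 20000 highest, and refinding 2.32 (adjusted p = 0.0121, sign-flip permutation) at 5 kb. Number and genes passed among the 20000 highest (eta squared 0.864 and 0.889), with scaling (0.987 and 0.994) and without K562 replicate 1 (0.99 and 0.987). Leaving out 1 library gave 0.961 to 0.991 for number, 0.941 to 0.988 for genes, 0.0973 to 0.148 for fold, 3.66 to 4.62 for sharing and -0.167 to 1.57 for refinding, which was negative without either HEK293T library. The call for fold was lost except without HFF1 replicate 1 or K562 replicate 1. Region counts were compared in settings chosen after seeing the data. Scaling gave 1478 regions, 67 HEK293T-specific, 222 HFF1-specific and 111 K562-specific, and leaving out 1 library gave 40 to 73 HEK293T-specific. A line with 1 library left was called open from that library alone. In the lines' order of share, GM12878 passed HEK293T at 1 kb, with 1 start per gene and without HEK293T replicate 1. The cause of these shifts was not tested. HEK293T depth limits what its lists can show.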
